A study of Mus musculus with 6 samples.

Results

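The glucose transporter and enzymes that carry glucose to lactate were read in osteoclast precursors (OCPs) that lack *lincRNA-EPS*. The 10 genes were *Slc2a1*, *Hk2*, *Gpi1*, *Pfkl*, *Aldoa*, *Tpi1*, *Pgk1*, *Eno1*, *Pkm* and *Ldha*. They were taken by gene name from the 57180 entries of the count table, in which 11 entries carry these names because *Aldoa* is listed under 2 identifiers. The entry with 1 to 9 counts per library (ENSMUSG00000114515) was too low to test, and *Aldoa* below is the other one (ENSMUSG00000030695). WT cultures came from C57BL/6 mice and KO cultures from *lincRNA-EPS* knockout mice, with 3 biologically independent cultures and 1 RNA-seq library per culture for each genotype. In both genotypes, bone marrow-derived macrophages were kept in M-CSF, a macrophage growth factor, at 40 ng/ml for 24 h, followed by 48 h with RANKL, the ligand that directs macrophages toward osteoclasts, at 40 ng/ml.

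Glycolysis splits glucose into pyruvate in the cytosol and yields ATP and NADH. Lactate dehydrogenase turns pyruvate into lactate and gives back the NAD+ that the pathway needs, and lactate leaves the cell through monocarboxylate carriers. Macrophages rely on the pathway when activated, and osteoclasts draw on it while they differentiate and resorb bone. Many of its genes are known targets of the hypoxia-inducible factor HIF-1, which binds DNA at a short core sequence.

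That core is read as ACGTG or GCGTG. To show what the gene starts look like, stretches upstream of 4 members are printed for the uptake and early steps (*Slc2a1*, *Hk2*, *Gpi1*) and for the first step that makes ATP (*Pgk1*). They are RefSeq sequence on GRCm38.p6, 5′ to 3′ on the strand of the gene, and capitals mark each match to ACGTG or GCGTG on either strand. The stretch of *Slc2a1* (chr4:119108495-119108710, plus strand) is 216 bases long because it was ended where the GENCODE gene begins. Those of *Hk2* (chr6:82774455-82774704, minus strand), *Gpi1* (chr7:34230337-34230586, minus strand) and *Pgk1* (chrX:106186850-106187099, plus strand) are the 250 bases before the start.
Slc2a1: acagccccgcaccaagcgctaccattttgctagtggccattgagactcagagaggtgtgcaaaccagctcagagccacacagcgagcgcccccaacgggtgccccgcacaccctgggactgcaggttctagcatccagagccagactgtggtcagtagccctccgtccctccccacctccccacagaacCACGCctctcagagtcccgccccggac
Hk2: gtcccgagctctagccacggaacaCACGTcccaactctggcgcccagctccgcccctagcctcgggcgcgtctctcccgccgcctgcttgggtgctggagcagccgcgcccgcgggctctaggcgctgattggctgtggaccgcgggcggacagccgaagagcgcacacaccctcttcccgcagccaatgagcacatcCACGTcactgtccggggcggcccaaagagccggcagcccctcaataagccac
Gpi1: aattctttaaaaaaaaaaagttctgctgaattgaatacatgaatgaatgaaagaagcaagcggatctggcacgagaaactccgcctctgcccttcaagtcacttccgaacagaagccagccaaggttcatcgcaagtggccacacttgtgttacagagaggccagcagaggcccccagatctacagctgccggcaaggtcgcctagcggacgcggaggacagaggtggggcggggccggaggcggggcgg
Pgk1: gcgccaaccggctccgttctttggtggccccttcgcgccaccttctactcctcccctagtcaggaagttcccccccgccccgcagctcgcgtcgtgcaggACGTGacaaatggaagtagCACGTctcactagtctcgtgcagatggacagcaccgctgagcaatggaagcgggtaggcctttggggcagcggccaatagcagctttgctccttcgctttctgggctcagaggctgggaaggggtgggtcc
*Hk2* and *Pgk1* each had 2 matches to ACGTG, and *Gpi1* had 0 to either core. The printed stretch of *Slc2a1* had 1 match to GCGTG, and its full window of 250 bases also held 1 ACGTG, which lies across the point where the stretch was ended. All 10 members matched the RefSeq table, with 16 annotated starts, some of which overlap. In the 250 bases before those starts, ACGTG was found at 7 starts and either core at 12. Of all 32851 windows of that length in the table, 16.6% held ACGTG, 28.2% held GCGTG and 38.6% held either. ACGTG also lies inside the E-box CACGTG, which reads the same on both strands. *Ldha* had 2 such E-boxes before its first start. A match describes these letters and was not measured as a binding site.

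The libraries held 17757351 to 19998611 estimated counts. All pairs of libraries differed by more than sampling noise, since the closest pair, WT replicates 1 and 3, had a chi-square of 3.76 per degree of freedom. The deleted transcript, listed as *Ttc39aos1*, was counted 20, 37 and 41 times in WT replicates 1, 2 and 3 and 0 times in each KO library, where 3 counts is the floor. KO replicate 3 and WT replicate 2 stood apart along the GC content of transcripts: the correlation of a library's deviation with GC content across 13176 genes was -0.61 and 0.56 in these libraries and between -0.10 and 0.23 in the other 4. For this reason the fold changes and shares of the members were also computed with each library corrected for GC content (GC-corrected). KO replicate 2 gave 2.71% of its counts to 18S rRNA, against 0.202% to 0.575% in the others. Osteoclast markers (10 genes) summed to 5100 to 5517 normalized counts (CPM, counts scaled to a common library size) in WT and 6832 to 7262 CPM in KO. Macrophage markers (8 genes) summed to 16482 to 17621 CPM in WT and 14848 to 17643 CPM in KO. Neutrophil markers (10 genes, 9 of them tested) summed to 1254 to 1414 CPM in WT and 1679 to 2021 CPM in KO, and all markers of these 3 lists had counts. At an unadjusted p-value under 0.05, 6 osteoclast markers were higher, 5 macrophage markers lower, and 6 neutrophil markers higher and 1 lower in KO, where 13.0% of all genes tested were higher and 13.2% lower. Mast cell or basophil markers (5 genes) summed to 0.875 to 1.63 CPM in WT and 2.75 to 3.27 CPM in KO, with both of the 2 tested genes higher. Markers of T cells and red cells stayed under 1 CPM in sum in every library. Their part in the results below was not tested, and in bulk RNA fewer cells of a type and less RNA per cell cannot be told apart.

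Before GC correction the members together took a smaller share of the counts in each KO library than in any WT library, and after it the groups overlapped. No single member passed the limits set below. *Slc2a1* and *Pfkl* had the largest differences, and *Tpi1*, *Pgk1* and *Ldha* had the smallest or opposite ones. Together the 10 genes gave 1.06%, 1.14% and 1.10% of all counts in WT replicates 1, 2 and 3, and 1.02%, 1.00% and 0.880% in KO replicates 1, 2 and 3. The groups did not overlap, with KO replicate 3 lowest. The means were 1.10% ± 0.0402 and 0.969% ± 0.0783 (n = 3 libraries each, SD), a difference of -0.132 percentage points, or -0.126 with 18S rRNA left out of the total and -0.0875 without KO replicate 3. After GC correction the share of the genes tested was 1.04%, 1.01% and 1.06% in WT and 1.02%, 1.02% and 1.08% in KO, with KO replicate 3 highest and a difference of 0.0028 percentage points, which was -0.016 without KO replicate 3. *Pkm*, *Aldoa* and *Eno1* are the most abundant members, so they weigh most in this sum.

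By gene, 0 of the 10 members passed an adjusted p-value under 0.01 with a fold change above 1.3 in edgeR's quasi-likelihood test with Benjamini-Hochberg adjustment, where 1 of 13428 genes tested did (0.00745%). At an unadjusted p-value under 0.05, 4 members were lower in KO (*Slc2a1*, *Hk2*, *Pfkl* and *Pkm*) and 0 were higher, where 13.2% of all genes tested were lower and 13.0% higher. The number of members under this p-value was 2 to 4 with a library left out and 2 with a replicate block. In 7 members each KO library lay below each WT library, against 18.8% of all genes tested, and in 0 members above, against 16.9%. The median log2 fold change of the members was -0.21, against 0.0091 over all genes tested. After GC correction the sign turned, to 0.02 against -0.0061, with 6 members higher and 4 lower. That sign rested on KO replicate 3: with GC correction but without that library the median was -0.03 and 6 members were lower. In the 4 members lower after GC correction of all libraries (*Slc2a1*, *Hk2*, *Gpi1* and *Pfkl*) the KO libraries still lay below the WT libraries, against 17.5% of all genes tested, and in 0 members they lay above, against 14.7%. DESeq2 called 0 members at the same limits, where it called 126 genes (1.21%).

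**Figure D1:**
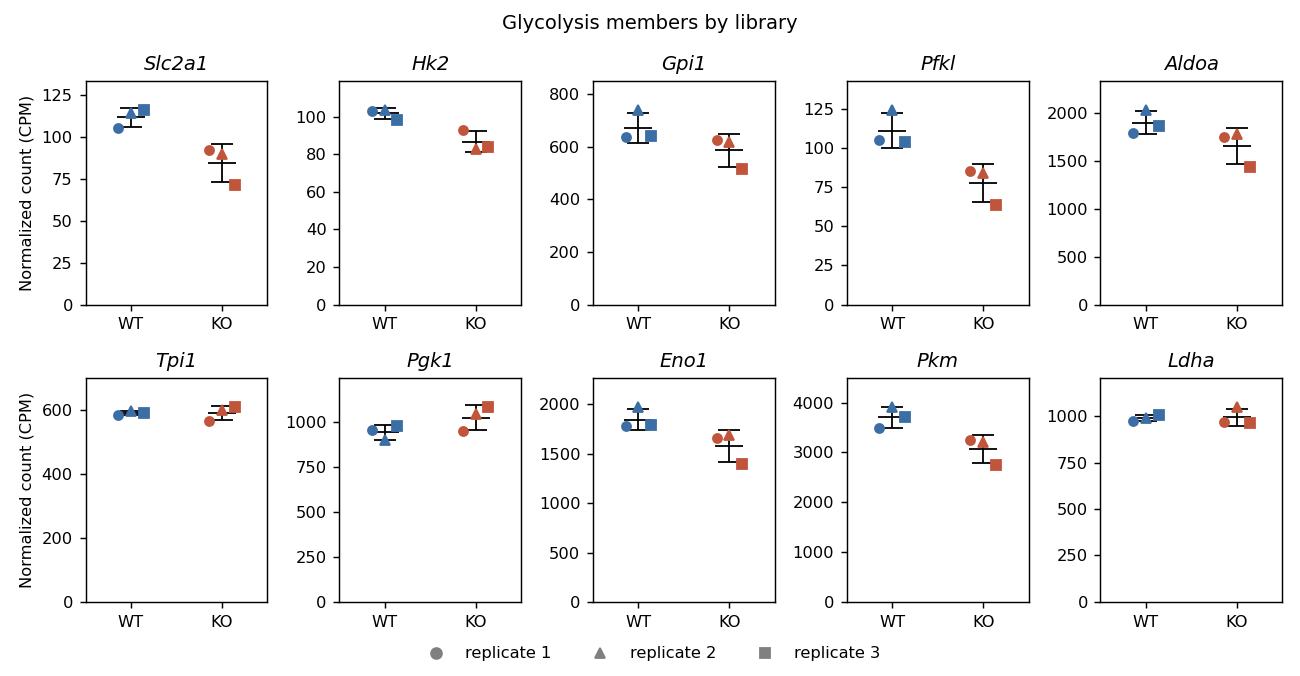
Normalized counts in CPM (vertical axis, from 0) of the 10 members in WT and KO libraries. Each symbol is 1 library, with its shape giving the replicate number, and black bars are the mean and SD of 3 libraries. Before GC correction the KO libraries of *Slc2a1*, *Hk2*, *Gpi1*, *Pfkl*, *Aldoa*, *Eno1* and *Pkm* lie below the WT libraries, which ends for *Aldoa*, *Eno1* and *Pkm* with the correction. In *Tpi1*, *Pgk1* and *Ldha* they overlap.

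The genes of glucose entry and trapping had lower counts in each KO library and did not pass the adjusted test. *Slc2a1* (ENSMUSG00000028645, GRCm38 chromosome 4 from 119108711 to 119137983, plus strand) encodes GLUT1, the basal glucose transporter of most cells. It had 105.1, 114.1 and 116.0 CPM in WT replicates 1, 2 and 3 and 92.3, 90.1 and 71.4 CPM in KO replicates 1, 2 and 3. The groups did not overlap, and KO replicate 3 was the lowest library. The KO level was 75.7% of WT, with a log2 fold change of -0.40 (standard error, SE, 0.12, 95% confidence interval -0.67 to -0.14, unadjusted p = 0.00759, adjusted p = 0.147, edgeR's quasi-likelihood test). After GC correction the log2 fold change was -0.26 (SE 0.07, adjusted p = 0.0841 from edgeR) and the groups were still apart. *Hk2* (ENSMUSG00000000628, chromosome 6 from 82725025 to 82774454, minus strand) encodes the inducible hexokinase, which traps glucose in the cell as glucose 6-phosphate. It had 103.2, 103.4 and 98.5 CPM in WT and 93.1, 82.9 and 84.1 CPM in KO, in the same order of replicates. All 3 KO libraries were lower than all WT libraries, and here KO replicate 2 was lowest. The log2 fold change was -0.23 (SE 0.09, unadjusted p = 0.0320, adjusted p = 0.165 from edgeR) and -0.15 after GC correction (adjusted p = 0.201).

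*Pfkl* had the largest difference among the members, also without passing the adjusted test. It encodes the liver-type subunit of phosphofructokinase-1, the step at which flux through glycolysis is committed and most tightly controlled. The gene (ENSMUSG00000020277, chromosome 10 from 77986947 to 78010083, minus strand) had 105.1, 124.0 and 103.9 CPM in WT and 85.2, 83.9 and 63.4 CPM in KO. The groups did not overlap, and KO replicate 3 was again lowest. KO was at 69.8% of WT, with a log2 fold change of -0.52 (SE 0.14, 95% confidence interval -0.82 to -0.21, unadjusted p = 0.00413, adjusted p = 0.147, edgeR's quasi-likelihood test). The value moved to -0.27 after GC correction (95% confidence interval -0.41 to -0.14, adjusted p = 0.0629 from edgeR). GC-corrected levels were 101, 104 and 99.0 CPM in WT and 83.8, 85.4 and 82.2 CPM in KO. KO replicate 3 was still the lowest library but was now close to the other KO libraries, and the genotypes did not overlap. DESeq2 gave *Pfkl* an adjusted p = 0.0216 and *Slc2a1* an adjusted p = 0.0412, both over the limit of 0.01. *Gpi1* (ENSMUSG00000036427, chromosome 7 from 34201330 to 34230336, minus strand), the isomerase between hexokinase and phosphofructokinase, had 637.5, 738.4 and 641.5 CPM in WT and 625.8, 618.0 and 514.8 CPM in KO. The lowest WT and highest KO libraries were close, and the log2 fold change of -0.20 (SE 0.11, adjusted p = 0.283 from edgeR) was -0.11 both without KO replicate 3 and after GC correction.

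**Figure D2:**
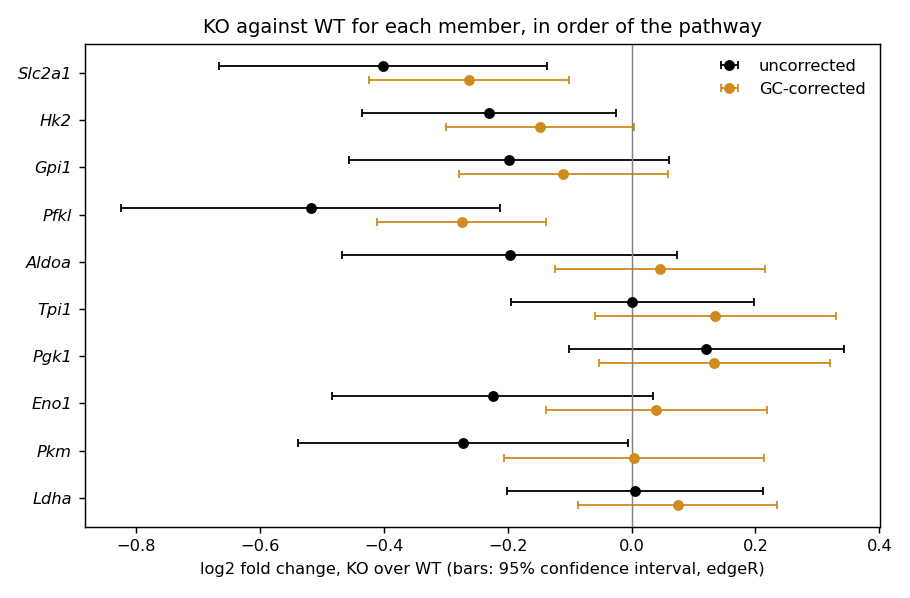
Log2 fold change of KO over WT (horizontal axis) for each member in pathway order, uncorrected (black) and GC-corrected (orange), with 95% confidence intervals from edgeR over 3 libraries per genotype. *Slc2a1* and *Pfkl* lie below 0 with both, while *Aldoa*, *Eno1* and *Pkm* move from -0.20, -0.22 and -0.27 to 0.05, 0.04 and 0.0044.

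The genes for aldolase, enolase and pyruvate kinase had lower counts in each KO library before GC correction and overlapping groups after it. *Aldoa* (chromosome 7 from 126795234 to 126800751, minus strand) encodes the aldolase that splits fructose 1,6-bisphosphate. It had 1800, 2034 and 1872 CPM in WT and 1758, 1783 and 1437 CPM in KO, a log2 fold change of -0.20 (adjusted p = 0.307 from edgeR). *Eno1* (ENSMUSG00000063524, chromosome 4 from 150236721 to 150248879, plus strand), the enolase that makes phosphoenolpyruvate, had 1780, 1970 and 1791 CPM in WT and 1658, 1692 and 1393 CPM in KO. Its log2 fold change was -0.22 (adjusted p = 0.235 from edgeR). *Pkm* (ENSMUSG00000032294, chromosome 9 from 59656368 to 59679375, plus strand) encodes the pyruvate kinase of most tissues, whose M1 and M2 forms come from alternative exons that a count per gene does not separate. *Pkm* had 3488, 3903 and 3710 CPM in WT and 3251, 3207 and 2739 CPM in KO, a log2 fold change of -0.27 (SE 0.12, unadjusted p = 0.0467, adjusted p = 0.185 from edgeR). In all 3 genes WT replicate 2 was the highest library and KO replicate 3 the lowest, the same libraries that stood apart in GC content. Without KO replicate 3 the values were -0.10 for *Aldoa*, -0.14 for *Eno1* and -0.20 for *Pkm*. After GC correction the groups overlapped in each of them, with 0.05 for *Aldoa*, 0.04 for *Eno1* and 0.0044 for *Pkm* (adjusted p of 0.726, 0.777 and 0.981 from edgeR). *Eno1* and *Pkm* had values that were not whole in all 6 libraries, as happens when reads are divided between similar genes, and their levels are less certain for that reason. *Eno1b*, a near copy of *Eno1*, held at most 0.931% of the counts of the pair in any library.

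*Tpi1*, *Pgk1* and *Ldha* did not pass the test in either direction. *Tpi1* (ENSMUSG00000023456, chromosome 6 from 124810586 to 124814296, minus strand), the isomerase of the triose phosphates, had 585.0, 597.6 and 593.0 CPM in WT and 567.4, 600.4 and 609.4 CPM in KO. *Pgk1* (ENSMUSG00000062070, chromosome X from 106187100 to 106203699, plus strand), the first enzyme of the pathway to make ATP, had 953.7, 897.7 and 975.4 CPM in WT and 947.6, 1044 and 1081 CPM in KO. Before GC correction *Pgk1* was the member with the highest log2 fold change, 0.12 (95% confidence interval -0.10 to 0.34, adjusted p = 0.440 from edgeR). *Ldha* (ENSMUSG00000063229, chromosome 7 from 46841475 to 46855627, plus strand) encodes the lactate dehydrogenase subunit that favours lactate. It had 974.4, 991.0 and 1006 CPM in WT and 970.1, 1047 and 964.6 CPM in KO, so the groups overlapped at nearly equal means of 990 ± 15.7 and 994 ± 46.0 CPM (n = 3 libraries each, SD). The 95% confidence interval of its log2 fold change of 0.0050 ran from -0.20 to 0.21 (adjusted p = 0.976 from edgeR), which bounds the difference without showing that the genotypes were alike. After GC correction *Tpi1* was at 0.14 (0.0013 before), *Pgk1* at 0.13 and *Ldha* at 0.07, with adjusted p-values of 0.346, 0.329 and 0.532 from edgeR. The steps that no member covers were close by: *Gapdh* had a log2 fold change of 0.04 (adjusted p = 0.809 from edgeR) and 0.15 after GC correction, where each KO library lay above each WT library (adjusted p = 0.356 from edgeR). *Pgam1* had one of -0.03 (adjusted p = 0.836 from edgeR), which turned to 0.08 after GC correction.

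The order of the members by level was nearly the same in both genotypes. On a scale of CPM per kb of the longest transcript, WT levels were 1521 ± 85.3 for *Pkm*, 1228 ± 77.5 for *Aldoa* and 911 ± 52.6 for *Eno1* (SD, n = 3). *Ldha* at 546 ± 8.64, *Pgk1* at 516 ± 22.0, *Tpi1* at 368 ± 3.98 and *Gpi1* at 210 ± 17.9 CPM per kb followed. The regulated entry points were lowest, with *Slc2a1* at 34.3 ± 1.78, *Pfkl* at 29.8 ± 3.03 and *Hk2* at 18.4 ± 0.510 CPM per kb. In KO, *Pgk1* at 561 ± 37.8 stood above *Ldha* at 548 ± 25.4 CPM per kb, and the libraries of these neighbours overlapped there. *Slc2a1* and *Pfkl* overlapped in both genotypes, and *Pkm* and *Aldoa* overlapped in KO, at 1261 ± 117 and 1071 ± 125 CPM per kb.

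The uncorrected differences of the members tended to run with their GC content, as those of other genes did, with exceptions. Over 13176 genes (not independent of each other), the correlation of the log2 fold change with GC content was -0.51, and it was -0.02 after the correction. Among the 10 members, which share the libraries, it was -0.65. *Pgk1* had the lowest GC content (49.7%) and the highest log2 fold change, while *Pkm* (57.7%), *Eno1* (57.4%), *Pfkl* (57.1%) and *Aldoa* (56.9%) were all lower in KO. Against this order, *Slc2a1* at 54.0% had a larger difference (-0.40) than *Pkm* (-0.27). *Hk2* at 51.9% had a larger one (-0.23) than *Aldoa* (-0.20). With the correction the members at an unadjusted p-value under 0.05 were *Slc2a1* and *Pfkl*, both lower, where 13.8% of all genes were lower and 12.0% higher. No member was called by edgeR with the correction (3 genes, 0.0223%, were called) nor by DESeq2 with it (339 genes, 3.21%). Of the genes with an adjusted p-value under 0.05 in edgeR with the correction, 0.983% of those tested, 0 were members. The correction removes any change that runs with GC content, so a technical trend and a change of GC-rich transcripts with genotype cannot be told apart here.

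**Figure D3:**
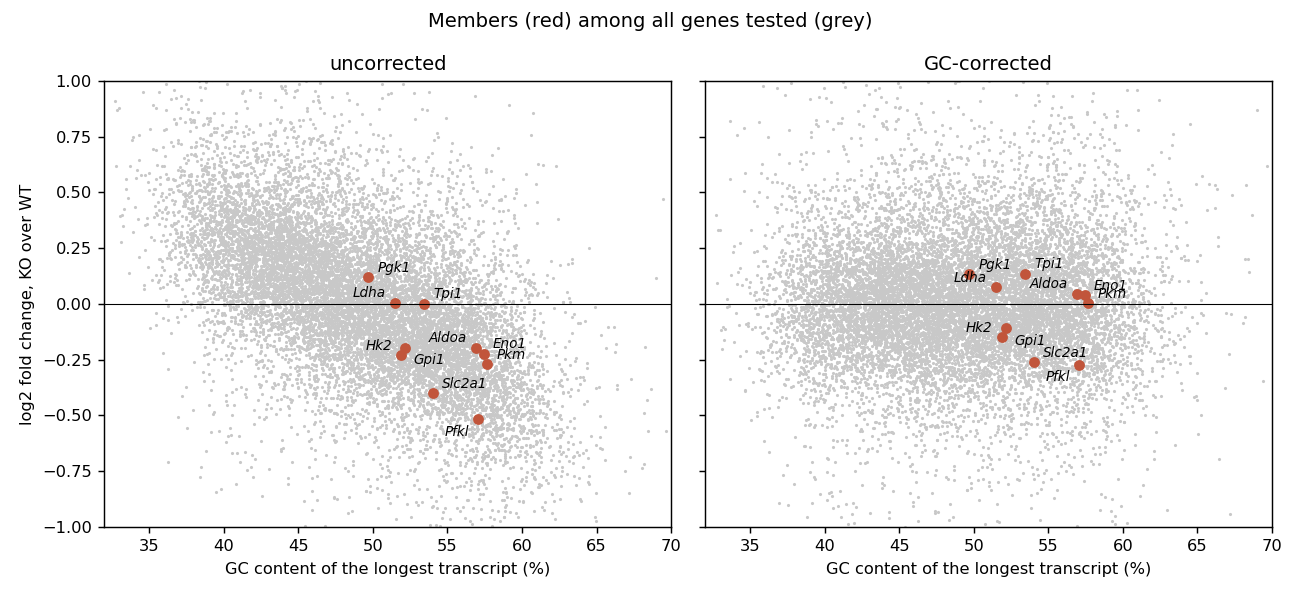
Log2 fold change of KO over WT (vertical axis, shown from -1 to 1) against the GC content of the longest transcript in percent (horizontal axis), uncorrected at left and GC-corrected at right. Grey points are genes tested and red points the 10 members. The grey cloud falls with GC content at left (r = -0.51) and is level at right (r = -0.02), where *Slc2a1* and *Pfkl* lie lowest among the members.

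Most steps of glycolysis can be served by more than one gene, so the share of each gene in the counts of its step was read within each library, as a description without a test. Counts were not scaled for transcript length here, so longer transcripts weigh more in these shares. Of the counts for phosphofructokinase, *Pfkl* held 39.6%, 42.1% and 37.9% in WT replicates 1, 2 and 3 and 35.1%, 34.3% and 30.3% in KO. Each KO share lay below each WT share. After GC correction the shares were 38.5%, 37.6% and 36.7% in WT and 34.9%, 34.8% and 36.4% in KO, so the groups were nearly touching and the means, 37.6% and 35.4%, closer. The platelet-type *Pfkp* held most of the phosphofructokinase counts in all libraries, at 55.2% ± 1.63 in WT and 60.9% ± 2.45 in KO (n = 3 libraries each, SD). After GC correction its shares overlapped, at means of 57.6% and 58.6%. The longest transcript of *Pfkp* has 8681 bases, against 3730 for *Pfkl*. Per kb of transcript, *Pfkl* lay above *Pfkp* in each library. The means were 29.8 against 17.6 CPM per kb in WT and 20.8 against 16.2 CPM per kb in KO. The level of *Pfkp* itself was not higher in KO: each KO library lay below each WT library, with a log2 fold change of -0.12 (adjusted p = 0.390 from edgeR) and -0.16 after GC correction (adjusted p = 0.181). Among hexokinases the share of *Hk2* overlapped between genotypes, at 16.4% ± 1.12 and 17.7% ± 1.38 (17.1% and 16.9% after GC correction). *Hk3*, the hexokinase typical of myeloid cells, held 48.7% ± 0.441 in WT and 44.8% ± 2.29 in KO, without overlap also after GC correction (48.1% and 45.3%). Among glucose transporters *Slc2a1* held 54.4% ± 2.72 and 54.5% ± 0.154, so its share overlapped, as it did after GC correction (54.9% and 54.4%). *Slc2a3* (GLUT3) went from 12.5% ± 0.751 to 18.4% ± 2.87, and *Slc2a6* went from 26.7% ± 1.69 to 21.5% ± 1.76, both without overlap. After GC correction these shares went from 13.6% to 17.0% and from 25.6% to 22.6%, still without overlap. The level of *Slc2a3* itself overlapped between genotypes, with a log2 fold change of 0.13 (adjusted p = 0.465 from edgeR) and 0.07 after GC correction. *Ldha* held 98.6% ± 0.0393 of the lactate dehydrogenase counts in WT and 98.3% ± 0.0852 in KO (98.6% and 98.3% after GC correction), without overlap in either case, the rest being *Ldhb*. *Ldhb*, the subunit that favours pyruvate, was the 1 gene above WT at an unadjusted p-value under 0.05 among the other glycolysis genes before GC correction, with a log2 fold change of 0.26 (unadjusted p = 0.0499, adjusted p = 0.191 from edgeR) and 0.37 after GC correction (adjusted p = 0.0720).

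**Figure D4:**
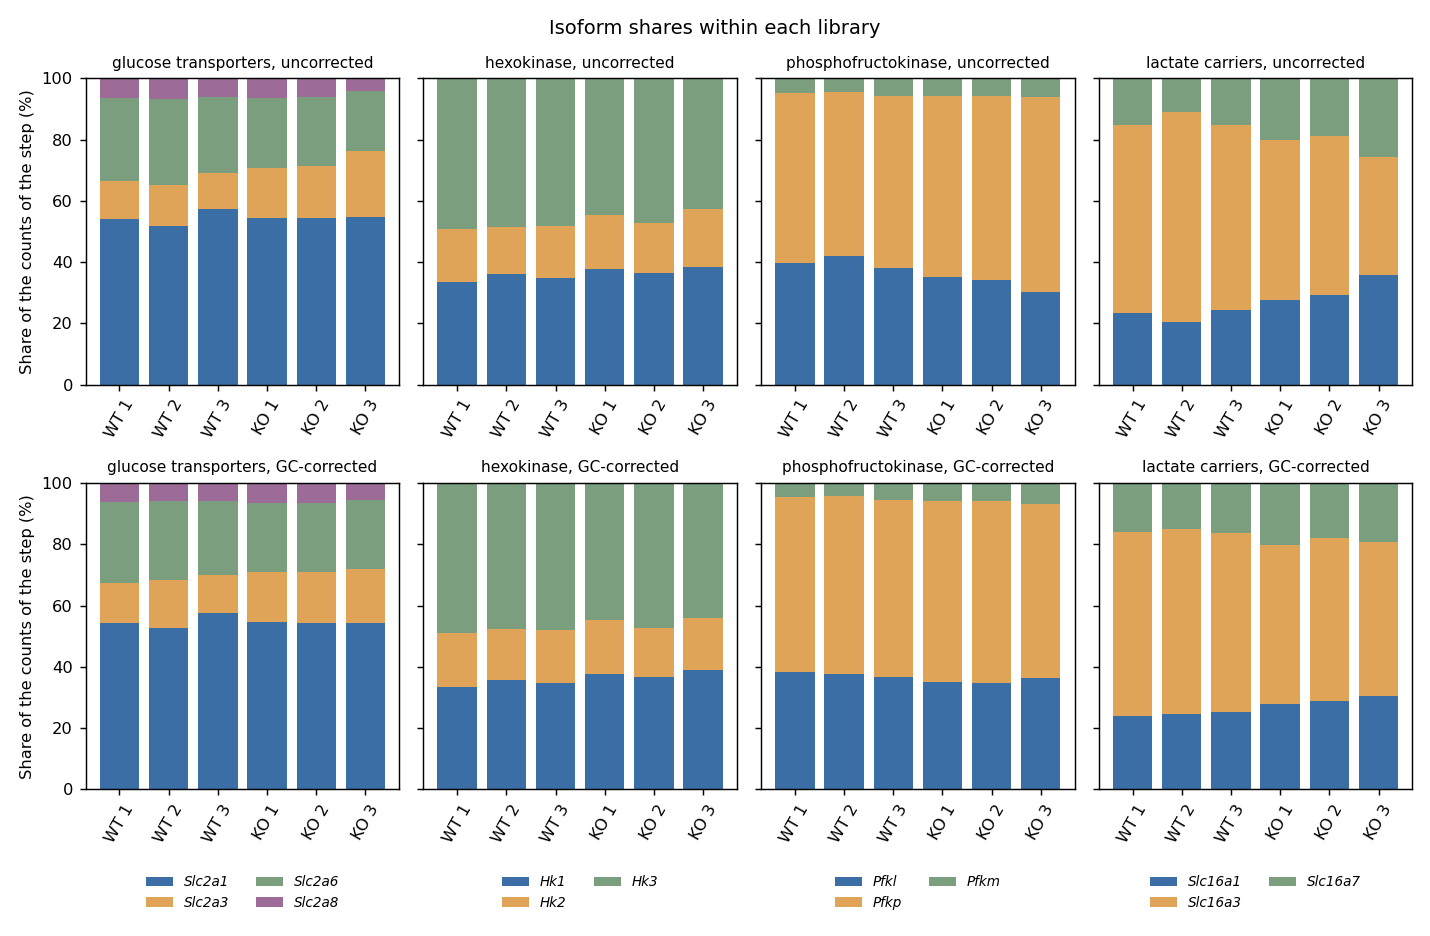
Share of the counts of a step held by each gene, in percent (vertical axis), in the 6 libraries (bars, each summing to 100%) for glucose transporters, hexokinase, phosphofructokinase and lactate carriers, uncorrected above and GC-corrected below. The share of *Pfkl* is 37.9% to 42.1% in WT and 30.3% to 35.1% in KO above, and 36.7% to 38.5% and 34.8% to 36.4% below. That of *Slc16a3* is 60.3% to 68.8% and 38.6% to 52.3% above, and 58.3% to 60.7% and 50.4% to 53.0% below.

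The genes around the members were read as lists. At an unadjusted p-value under 0.05, 13.0% of all genes tested were higher in KO and 13.2% lower. After GC correction these shares were 12.0% and 13.8%. Of 26 other glycolysis genes, 18 were tested, of which 1 was higher and 3 lower in KO at an unadjusted p-value under 0.05, with a median log2 fold change of -0.02 (0.05 after GC correction, with the same counts). The lowest was *Slc2a6*, a transporter of the lysosomal membrane, at 55.0 ± 6.15 CPM in WT and 33.6 ± 7.11 CPM in KO (n = 3 libraries each, SD). Its log2 fold change was -0.71 (SE 0.16, adjusted p = 0.147 from edgeR) and -0.43 after GC correction (adjusted p = 0.0431 from edgeR). DESeq2 called it with adjusted p = 0.00788, and it was the 1 gene of these lists called by DESeq2. *Hk3* had a log2 fold change of -0.46 (SE 0.12, adjusted p = 0.147 from edgeR) and -0.22 after GC correction (adjusted p = 0.0833). Of 12 flux regulators, 10 were tested, and 0 were higher and 2 lower at an unadjusted p-value under 0.05 (1 and 1 after GC correction). These were *Pfkfb3*, which makes the activator fructose 2,6-bisphosphate, at -0.23 (adjusted p = 0.190 from edgeR) and -0.20 after GC correction, and *Myc*, a transcription factor that induces glycolysis genes, at -0.34 (adjusted p = 0.187 from edgeR). *Myc* was at -0.15 without WT replicate 2 and at -0.20 after GC correction, where its groups overlapped.

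Past pyruvate, the lists of carriers and of pyruvate dehydrogenase held genes with higher and with lower counts in KO, and none passed the limits. The shares over all genes tested were 13.0% higher and 13.2% lower at an unadjusted p-value under 0.05, and 12.0% and 13.8% after GC correction. Of 8 lactate and pyruvate carriers, 7 were tested, with 3 higher and 1 lower in KO at an unadjusted p-value under 0.05 and a median log2 fold change of 0.27 (0.11 after GC correction, with 1 higher and 1 lower). The lower one was *Slc16a3*, which encodes MCT4, the carrier suited to export lactate. It had 121.3, 145.3 and 122.3 CPM in WT replicates 1, 2 and 3 and 98.8, 96.3 and 66.0 CPM in KO, without overlap. Its log2 fold change was -0.57 (SE 0.16, adjusted p = 0.147 from edgeR) and -0.35 after GC correction (adjusted p = 0.0618). *Slc16a7* (MCT2) had a log2 fold change of 0.48 (adjusted p = 0.147 from edgeR) that was 0.14 after GC correction. Of the counts of the 3 carriers, not scaled for transcript length, *Slc16a3* held 63.6% ± 4.57 in WT and 47.6% ± 7.82 in KO (n = 3 libraries each, SD). After GC correction its share was 59.7% ± 1.23 and 51.8% ± 1.31, without overlap. Of 13 genes of pyruvate dehydrogenase, its kinases and phosphatases and pyruvate carboxylase, 12 were tested. At an unadjusted p-value under 0.05, 5 were higher and 1 lower in KO, and 5 higher and 3 lower after GC correction. *Pdhb*, a subunit of its first enzyme, had 113 ± 9.63 CPM in WT and 152 ± 13.9 CPM in KO, a log2 fold change of 0.43 (SE 0.11, adjusted p = 0.147 from edgeR). *Dld*, the shared dihydrolipoamide dehydrogenase, had 128 ± 17.3 and 199 ± 44.1 CPM, a log2 fold change of 0.63 (SE 0.17, adjusted p = 0.147 from edgeR). After GC correction they were at 0.33 and 0.36 with the groups still apart (adjusted p of 0.0630 and 0.0639 from edgeR).

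In the side branches no gene passed the limits. Of all genes tested, 13.0% were higher and 13.2% lower at an unadjusted p-value under 0.05, and 12.0% and 13.8% after GC correction. Of 12 genes of the pentose phosphate pathway, 11 were tested, with 0 higher and 3 lower at an unadjusted p-value under 0.05, among them *H6pd* (log2 fold change -0.49) and *G6pdx* (-0.22), the NADPH-making first enzymes in the endoplasmic reticulum and cytosol. After GC correction 0 were higher and 2 lower, *H6pd* was at -0.23, and *G6pdx* was at -0.11 with overlapping groups and an unadjusted p-value over 0.05. Of gluconeogenesis and glycogen genes, 13 were tested. At an unadjusted p-value under 0.05, 1 was lower, the glycogen phosphorylase *Pygb* at -0.33 (-0.17 after GC correction). With GC correction 1 gene of this list was higher and 3 were lower at the same limit. The median log2 fold change went from -0.03 to -0.14. *Pygl*, the liver-type glycogen phosphorylase, was at -0.13 with overlapping groups and at -0.26 after GC correction with the groups apart (adjusted p = 0.0832 from edgeR). *Ugp2*, which makes UDP-glucose, was at 0.40 with overlapping groups, at 0.06 after GC correction, and between 0.10 without KO replicate 3 and 0.59 without KO replicate 1. Of 11 genes of the shuttles that reoxidize cytosolic NADH, 1 was higher and 1 lower at an unadjusted p-value under 0.05. Their median log2 fold change was 0.08. After GC correction 4 were higher and 1 lower at the same limit, with a median of 0.16, the higher ones being *Mdh1*, *Mdh2*, *Got2* and *Slc25a11*. *Mdh1*, cytosolic malate dehydrogenase, had a log2 fold change of 0.36 (adjusted p = 0.147 from edgeR) and 0.25 after GC correction. The mitochondrial carrier *Slc25a10* was at -0.40, between -0.49 and -0.24 with a library left out, and at -0.0073 after GC correction.

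The HIF lists held both higher and lower genes and none past the limits. Among all genes tested, 13.0% were higher and 13.2% lower at an unadjusted p-value under 0.05, and 12.0% and 13.8% after GC correction. Of 10 regulators, 8 were tested, with 1 higher and 2 lower in KO at an unadjusted p-value under 0.05 and a median log2 fold change of -0.14 (-0.02 after GC correction, with 1 higher and 3 lower). *Hif1a*, which encodes HIF-1α, was at -0.02 with overlapping groups (adjusted p = 0.913 from edgeR). After GC correction it was at -0.26 with the groups apart (unadjusted p = 0.00157, adjusted p = 0.0630 from edgeR). *Epas1*, which encodes HIF-2α, had only 4.10 ± 0.620 CPM in WT and 2.70 ± 0.251 CPM in KO (n = 3 libraries each, SD), a log2 fold change of -0.60 (adjusted p = 0.147 from edgeR) and -0.50 after GC correction. *Egln2*, a prolyl hydroxylase that marks HIF for destruction, was at -0.43 uncorrected and 0.04 after GC correction. *Egln3*, another HIF prolyl hydroxylase and the 1 gene of this list above WT at an unadjusted p-value under 0.05 before GC correction, was at 0.44 (adjusted p = 0.161 from edgeR) and 0.51 after GC correction (adjusted p = 0.0991), with the groups apart in both. Of the hypoxia-induced genes outside glycolysis, 16 were tested, with 2 higher and 2 lower and a median of 0.08 (0.04 after GC correction, with 1 higher and 2 lower). *Ndrg1*, a gene known to be induced by hypoxia, was at -0.29 on the log2 scale (adjusted p = 0.160 from edgeR). It was at -0.26 after GC correction and between -0.35 and -0.19 with a library left out. The 2 higher genes were *Bnip3* at 0.30 and *Bnip3l* at 0.28 (adjusted p of 0.170 and 0.173 from edgeR). After GC correction they were at 0.07 and 0.06, with overlapping groups.

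**Figure D5:**
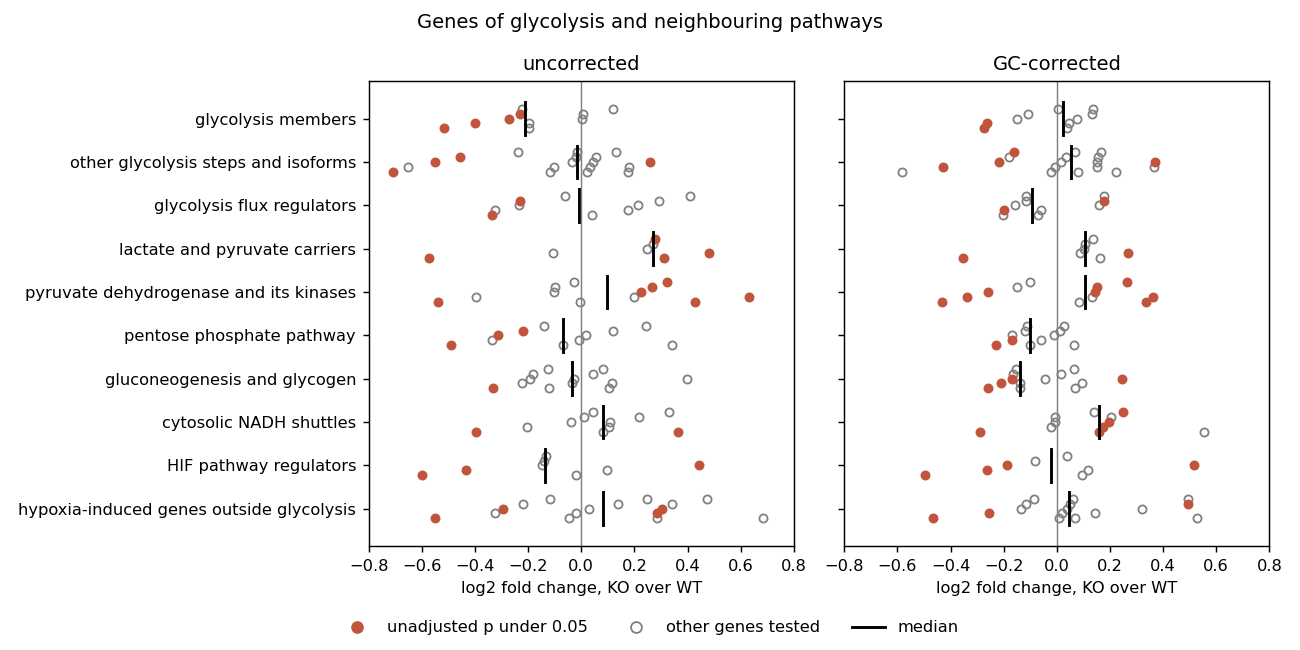
Log2 fold change of KO over WT (horizontal axis) for each gene tested in the member list and 9 neighbouring lists, uncorrected at left and GC-corrected at right. Filled red points have an unadjusted p-value under 0.05 in edgeR, open points do not, and black lines are medians. The median of the members is -0.21 at left and 0.02 at right, and that of the carriers is 0.27 and 0.11.

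The genes whose pattern over the 6 libraries was most like the mean of the members were *Dusp23* (Pearson's r = 0.997), *Lgals3* (r = 0.995) and *Gpr84* (r = 0.994), on log2 CPM. They are a phosphatase, the lectin galectin-3 and a receptor for medium-chain fatty acids. In all, 206 genes had r above 0.95 over these 6 libraries. All 3 had a GC content of 54.7% to 55.5% and a log2 fold change below 0 (-0.28, -0.22 and -0.46), with adjusted p-values of 0.224, 0.223 and 0.149 from edgeR. After GC correction these were -0.09, -0.04 and -0.30.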

How the data were processed

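RNA of 3 WT and 3 KO OCP cultures was sequenced as stranded mRNA libraries. The authors deposited one table of estimated counts per gene, not normalized, in which 25.1% to 26.6% of the detected genes of a library had values that were not whole. The submitters' processing notes name fastp, HISAT2, StringTie, RSEM and GRCm39, without roles. The authors' mean per genotype in the same table was not used. The genotype in the labels set the groups. The members and all gene and marker lists were chosen with earlier results of these data known.

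For count tests the values were rounded. In R 4.3.3 with edgeR 4.0.16, genes were kept by filterByExpr, libraries scaled by TMM, and genotypes compared with glmQLFit (legacy = FALSE) and glmQLFTest, two-sided, over 13428 genes with Benjamini-Hochberg adjustment. A gene was called where the adjusted p-value was below 0.01 and genotypes differed by more than 1.3-fold (0.379 in log2 units). The common biological coefficient of variation was 0.142. The fits were also run on simulated counts, which held no GC trend between libraries and so did not test the GC correction. CPM are TMM-scaled. The floor of 3 counts was 0.150 to 0.169 CPM before scaling and covers counting error only. Confidence intervals are those of the model. The p-values measure the spread between these cultures.

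For the GC correction, each library's deviation from the gene means was modelled on GC content (natural spline, 5 degrees of freedom) and given to the fit as an offset. GC content, length and positions are from the longest transcript or gene in GENCODE M21 on GRCm38, a build other than that of the notes, and matched 51884 identifiers by gene ID. Of the genes tested, 13176 had a GC value. Promoter windows are from RefSeq on GRCm38.p6. The genes named were the members, the deleted gene, *Gapdh* and *Pgam1*, the 2 tested genes of each other list with the smallest p-value, and the 3 genes outside the lists with the highest correlation to the mean scaled log2 CPM of the members. Of the genes this rule names, 1 is not reported here. *Slc2a3*, *Pfkp* and *Ldhb* were named as forms of a member's step, *Eno1b* as a near copy, and *Hif1a*, *Egln3*, *Bnip3*, *Bnip3l*, *Pygl*, *Mdh2*, *Got2* and *Slc25a11* for their values, after these were seen. The alternatives were DESeq2 1.42.0, limma-voom (limma 3.58.1), edgeR's legacy test, scaling by size factors of DESeq2 or only by library size, no filter or at least 10 counts in every library, the GC correction, a replicate block and each library left out. The GC correction without KO replicate 3, the share without 18S rRNA and the GC-corrected shares, with and without KO replicate 3, were chosen after seeing the data. Lactate and enzyme activity were not analysed here.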

Additional observations from a re-analysis of the deposited data

How the results depend on the processing

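*Slc2a1*, *Hk2*, *Gpi1* and *Pfkl* were lower and *Pgk1* higher in KO under each of the 18 alternatives run for them, and no member passed the adjusted limits under any. *Slc2a1* ranged from -0.47 to -0.22 and *Pfkl* from -0.59 to -0.26 on the log2 scale. The number of genes past the limits, 1, was 126 with DESeq2, 3 with GC correction, 339 with both and 4 with GC correction without KO replicate 3, and 0 to 2 with a library left out. At an unadjusted p-value under 0.05 it was 3515 genes, or 26.2% of the 13428 tested. Among them were 4 members and 29 genes of the neighbouring lists, whose numbers of tested genes are given above. Whether these counts exceed the share over all genes was not tested. Of the 29 genes, DESeq2 called 1 at the adjusted limits, with or without GC correction. The median of the members was 0.022 with GC correction in edgeR or DESeq2, 0.021 with the replicate block added, -0.031 with GC correction without KO replicate 3, and -0.25 to -0.13 with a library left out, the latter without KO replicate 3. The difference in the summed share of the members was 0.0028 percentage points from GC-corrected counts, -0.016 from these without KO replicate 3, and -0.160 to -0.0875 with a library left out. The cause of these shifts was not tested.

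With GC correction in edgeR, in DESeq2 and with the replicate block, the log2 fold change turned to 0.046, 0.046 and 0.046 for *Aldoa*, 0.040, 0.040 and 0.038 for *Eno1*, 0.0044, 0.0044 and 0.0029 for *Pkm*, 0.078, 0.078 and 0.075 for *Pgam1*, and 0.039, 0.037 and 0.037 for *Egln2*. With GC correction without KO replicate 3 it turned to 0.023 for *Aldoa*, 0.040 for *Pgam1* and -0.070 for *Ugp2*. *Tpi1* turned to -3.17e-05 with DESeq2, -0.015 with library size alone, -0.010 without a filter, and -0.0078, -0.0089 and -0.019 without WT replicate 1, KO replicate 2 and KO replicate 3. *Ldha* turned to -0.011 with library size alone, -0.0062 without a filter, and -0.0073 and -0.034 without WT replicate 1 and KO replicate 2. *Gapdh* turned to -0.0021 without KO replicate 3, and *Pgam1* to 0.0043 without KO replicate 1. The other ends of the ranges with a library left out were 0.035 for *Tpi1*, 0.027 for *Ldha*, 0.074 for *Gapdh* and -0.086 for *Pgam1*.

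The labels share replicate numbers without saying that they mark a shared batch. Deviations of same-numbered WT and KO libraries correlated at -0.22, 0.08 and 0.17, within the range of -0.29 to 0.29 for differently numbered ones. These deviations carry the GC trend of the libraries, so they cannot decide whether the numbers pair the samples. With the replicate block 1 gene passed the limits, as without it, and 0 members. Of the 10 members, 8 had a log2 fold change within 0.379 of 0 and were below the fold limit whatever their p-value.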
